A study of Mus musculus with 12 samples.

Results

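Ttc21a, Ctc1, St8sia4, Anks6, Ptgfrn, Pde3b and Hcar2 are genes with low transcript levels in mouse blood neutrophils after lipopolysaccharide (LPS). They are 7 of the 9374 genes in the deposited table, and all 7 of the listed symbols had a row. They were chosen from their falls with LPS in these same libraries, so their LPS differences are given as a description, with no test. Neutrophils came from the blood of female mice in 4 groups of 3 libraries, isolated 16 hours after treatment. The groups were mice labelled Hmgb1ΔMye with 0.5 mg/kg LPS (KO-LPS), the same line with saline (KO-Saline), wild-type mice with the same LPS dose (WT-LPS) and wild-type mice with saline (WT-Saline). ΔMye is a usual name for a deletion in myeloid cells. The driver of the deletion is not given in the sources used here, and nothing says that each library was another mouse. P-values therefore measure the spread between these libraries, which may be technical.

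LPS is a component of the outer membrane of Gram-negative bacteria that is sensed by Toll-like receptor 4. In neutrophils it starts NF-kB, MAP kinase and interferon signalling, and in the whole animal it also draws immature neutrophils out of the bone marrow. The 7 genes have no common pathway. Ttc21a and Anks6 encode proteins of the primary cilium, Ctc1 a telomere protein, St8sia4 an enzyme that builds polysialic acid, Ptgfrn a membrane partner of tetraspanins, Pde3b an enzyme that breaks down cyclic AMP, and Hcar2 a receptor that lowers cyclic AMP. Because the mice received the LPS, fewer cells of a type and less RNA per cell cannot be told apart in these bulk samples.

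Levels below are in CPM, which are reads scaled by the authors to a common library size. Reads were recovered from the deposited log2 values, and libraries held 399702 to 526757 reads in the table. At this depth 3 reads in a library, taken as the floor for a count of 0, correspond to 5.575 to 8.003 CPM. Of 15 mature neutrophil markers, all 15 were measured, with summed levels of 22578 to 24031 CPM in KO-LPS, 20963 to 21294 in KO-Saline, 20376 to 23232 in WT-LPS and 15678 to 20674 in WT-Saline. The sum hides opposite movements. With LPS, 7 of the 15 were called higher and 3 lower in WT (limma adjusted p under 0.05). In KO-labelled libraries 3 were called higher and 2 lower. Among all genes 6.72% were called higher and 4.96% lower in WT, and 1.99% and 1.35% in KO-labelled libraries. Reads of Hmgb1, the targeted gene, totalled 52 in KO-LPS and 49 in KO-Saline, against 63 in WT-LPS and 37 in WT-Saline. Hmgb1 was not detectably lower in the libraries labelled KO (averaged log2 difference 0.16 ± 0.40 SE, limma adjusted p = 0.978), so KO stands for the label only. Exons of Hmgb1 overlap those of Uspl1 on the other strand by 42 bases. Counts over the whole gene can include exons outside the deleted part. The strand setting of the counting is not given in the sources used here. Among 225 long non-coding genes that lie antisense to exons of a measured coding gene, 164 (72.9%) had more reads than their partner. Whether reads were counted on the opposite strand was not tested, and all values below depend on it.

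KO-LPS replicate 1 stood apart from the other 2 KO-LPS libraries. All 7 genes were highest in it among the 3 KO-LPS libraries. The same held for 89.2% of the 465 genes called lower by LPS in WT, and for 35.7% of all genes. Of 12 immature neutrophil markers 8 were measured (Ngp, Camp, Ltf, Lcn2, Chil3, Prtn3, Cebpe and Mki67). Their summed level was 3156 CPM in KO-LPS replicate 1, 15578 in replicate 2 and 14888.5 in replicate 3, against 2246 to 2678 in KO-Saline. It was 11635 to 16792 in WT-LPS and 1980 to 2809 in WT-Saline. None of the 8 was at 0 reads over a group. In WT 5 of the 8 rose and 3 did not pass, and in KO-labelled libraries 3 rose and 5 did not pass. Among all genes, 6.72% were called higher in WT and 1.99% in KO-labelled libraries. The summed level of the immature markers was high in WT-LPS and in KO-LPS replicates 2 and 3, where the 7 genes were low. It was low in KO-LPS replicate 1. In that library Anks6 was also low (18.7 CPM, 15.6% of the KO-Saline mean). Ptgfrn was at 39.5% of its KO-Saline mean there, and the others were at 41.7% to 131.7%. The part of the immature markers in the differences was not tested.

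RefSeq promoter windows, from 250 bases before to 50 bases after the gene start in the build GRCm38.p6, were at hand for 4 of the 7 genes. They are shown because these genes were low together after LPS. Capitals mark matches on either strand to the CRE core TGACG, the E-box CACGTG, the PU.1 or ETS core GAGGAA and the GC box GGGCGG.
Ttc21a (chr9:119937356-119937655, plus strand): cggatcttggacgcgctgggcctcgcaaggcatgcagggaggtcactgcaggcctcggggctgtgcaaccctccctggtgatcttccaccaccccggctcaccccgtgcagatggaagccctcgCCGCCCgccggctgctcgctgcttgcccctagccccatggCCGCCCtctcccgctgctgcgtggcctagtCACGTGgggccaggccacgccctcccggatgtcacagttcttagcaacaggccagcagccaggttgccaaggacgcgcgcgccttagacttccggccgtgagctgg
Ctc1 (chr11:69015661-69015960, plus strand): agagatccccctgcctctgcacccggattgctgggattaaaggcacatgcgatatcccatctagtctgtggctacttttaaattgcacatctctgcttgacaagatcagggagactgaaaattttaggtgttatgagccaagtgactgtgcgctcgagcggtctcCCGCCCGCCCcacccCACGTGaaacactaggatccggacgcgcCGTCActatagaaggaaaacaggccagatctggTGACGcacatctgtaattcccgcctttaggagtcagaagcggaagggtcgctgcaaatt
St8sia4 (chr1:95667545-95667844, minus strand): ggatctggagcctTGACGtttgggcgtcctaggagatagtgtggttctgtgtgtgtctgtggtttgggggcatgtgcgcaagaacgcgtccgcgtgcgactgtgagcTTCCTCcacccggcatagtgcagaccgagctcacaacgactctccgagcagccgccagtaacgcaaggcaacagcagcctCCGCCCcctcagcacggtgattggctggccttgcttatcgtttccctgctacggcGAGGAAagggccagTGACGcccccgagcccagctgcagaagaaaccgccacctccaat
Ptgfrn (chr3:101110117-101110416, minus strand): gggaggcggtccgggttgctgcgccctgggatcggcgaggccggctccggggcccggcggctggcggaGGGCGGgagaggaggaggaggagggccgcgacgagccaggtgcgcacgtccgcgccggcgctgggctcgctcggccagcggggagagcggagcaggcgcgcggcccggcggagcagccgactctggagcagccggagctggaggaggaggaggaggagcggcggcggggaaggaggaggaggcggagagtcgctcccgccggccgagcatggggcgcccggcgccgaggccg

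The GC box was in all 4 windows, and in 35.7% of all 32851 windows in the RefSeq table. The windows of St8sia4 and Ctc1 held the CRE core (20.8% of all windows), those of Ttc21a and Ctc1 the E-box (7.2%), and that of St8sia4 the PU.1 core (28.3%). The palindromic E-box matches both strands at the same place, and both GC boxes of Ctc1 overlap each other. None of the 4 windows held the full CRE TGACGTCA (1.8% of all windows, each with the CRE core), AP-1 TGANTCA (7.8%), NF-kB GGANTTTCC (1.3%), ISRE GAAANNGAA (8.6%), C/EBP TTGCNNAA (10.8%) or the TATA box with the letters TATAAA (13.6%). GC content was 69.3% in Ttc21a, 52.7% in Ctc1, 61.3% in St8sia4 and 80.0% in Ptgfrn, beside a median of 52.7% over all windows. These are matches of letters in short windows and show no binding.

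Ttc21a encodes a tetratricopeptide repeat protein related to Ttc21b, a subunit of the intraflagellar transport complex that carries cargo back along the cilium. In humans, mutations in TTC21A affect the sperm flagellum. The gene is on chromosome 9, plus strand (119937606 to 119967793, mm10, GENCODE M21). Its level was 2.37, 38.0 and 1.86 CPM in WT-LPS, against 411.5, 404 and 339 CPM in WT-Saline. It was 181, 29.6 and 23.6 CPM in KO-LPS, against 184, 154 and 75.4 CPM in KO-Saline. The WT groups lay far apart, while KO-LPS replicate 1 lay within the KO-Saline range. In pooled reads, WT-LPS held 3.65% of the WT-Saline level (95% counting interval 2.21% to 5.70%), and KO-LPS held 53.2% of the KO-Saline level (40.8% to 69.0%). The fitted log2 difference was -5.72 ± 0.69 in WT, the third lowest of all genes, and -1.33 ± 0.69 in KO-labelled libraries (± SE). Among the 7 genes Ttc21a alone had saline groups that did not overlap, with 138 ± 56.0 CPM in KO-Saline and 385 ± 39.8 CPM in WT-Saline (SD, n = 3). How many of all genes had separate saline groups was not counted. The order of the group means of Ttc21a was WT-Saline, KO-Saline, KO-LPS and WT-LPS, and from KO-Saline down each group overlapped the next.

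Anks6 encodes an ankyrin repeat protein that binds the kinase Nek8 in the inversin compartment at the base of the cilium, and its loss causes cystic kidneys in rodents. The gene is on chromosome 4, minus strand (47015669 to 47057427). Its level was 11.85, 4.22 and 5.58 CPM in WT-LPS, against 92.0, 118 and 125 CPM in WT-Saline. It was 18.7, 17.3 and 8.58 CPM in KO-LPS, against 105, 163 and 92.4 CPM in KO-Saline. All 6 LPS libraries lay below all 6 saline libraries, and KO-LPS replicate 1 lay close to replicate 2. WT-LPS held 6.16% of the WT-Saline level (2.90% to 11.6%) and KO-LPS 11.8% of the KO-Saline level (6.83% to 19.3%). The log2 differences were -3.87 ± 0.52 in WT and -2.94 ± 0.52 in KO-labelled libraries. Both saline groups overlapped each other, as did both LPS groups.

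Ctc1 encodes the large subunit of the CST complex, which with Stn1 and Ten1 binds single-stranded DNA at telomeres and helps DNA polymerase alpha fill in the lagging strand. The gene is on chromosome 11, plus strand (69015911 to 69036473). Its level was 16.6, 2.11 and 22.3 CPM in WT-LPS, against 244, 495 and 315 CPM in WT-Saline. It was 128, 2.47 and 4.29 CPM in KO-LPS, against 294, 341 and 287 CPM in KO-Saline. LPS and saline did not overlap in either genotype, and KO-LPS replicate 1 lay between the other KO-LPS libraries and the saline libraries. WT-LPS held 3.94% of the WT-Saline level (2.38% to 6.15%) and KO-LPS 13.3% of the KO-Saline level (9.69% to 17.8%). The log2 difference of -4.95 ± 0.80 in WT was the sixth lowest of all genes, and that of -4.49 ± 0.80 in KO-labelled libraries the second lowest. The saline groups overlapped, and so did the LPS groups.

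St8sia4 encodes a polysialyltransferase, which adds chains of sialic acid to the neural cell adhesion molecule and to a few other surface proteins. The gene is on chromosome 1, minus strand (95587682 to 95667571). Its level was 11.85, 23.2 and 1.86 CPM in WT-LPS, against 208, 427 and 246 CPM in WT-Saline. It was 195, 32.1 and 10.7 CPM in KO-LPS, against 273, 269 and 306 CPM in KO-Saline. Again neither genotype's groups overlapped, with KO-LPS replicate 1 closest to saline. WT-LPS held 4.02% of the WT-Saline level (2.32% to 6.51%) and KO-LPS 25.8% of the KO-Saline level (20.3% to 32.6%). The log2 differences were -4.87 ± 0.67 in WT and -2.74 ± 0.67 in KO-labelled libraries.

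Ptgfrn encodes a protein of the immunoglobulin superfamily, also called EWI-F, that binds the tetraspanins CD9 and CD81. The gene is on chromosome 3, minus strand (101040232 to 101110278). It had 0, 0 and 0 reads in WT-LPS, against 17, 11 and 37 reads in WT-Saline. It had 7, 2 and 5 reads in KO-LPS, against 13, 16 and 30 reads in KO-Saline. Reads were seen in all 3 KO-LPS libraries and in no WT-LPS library. The level was at least 7.01-fold lower in WT-LPS than in WT-Saline, taking the floor of 3 reads per library, and KO-LPS held 23.8% of the KO-Saline level (12.3% to 43.2%). KO-LPS averaged 11.4 ± 6.90 CPM (SD, n = 3), at least 1.81-fold above the WT-LPS floor.

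Pde3b encodes a phosphodiesterase that breaks down cyclic AMP and is best known from insulin action in fat cells. The gene is on chromosome 7, plus strand (114415281 to 114539251). It had 3, 5 and 1 reads in WT-LPS, against 17, 20 and 17 reads in WT-Saline. It had 9, 0 and 0 reads in KO-LPS, against 17, 15 and 24 reads in KO-Saline. All KO-LPS reads came from replicate 1, and the LPS and saline groups did not overlap in either genotype. WT-LPS held 16.5% of the WT-Saline level (7.18% to 33.8%) and KO-LPS 16.2% of the KO-Saline level (7.02% to 32.9%). The log2 differences were -2.60 ± 0.97 in WT and -3.81 ± 0.97 in KO-labelled libraries, the last being the fourth lowest of all genes.

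Hcar2 encodes a Gi-coupled receptor for nicotinic acid and the ketone body beta-hydroxybutyrate, present on fat cells and neutrophils. It is a compact gene on the minus strand of chromosome 5 (123863570 to 123865499). Its level was 30.8, 12.65 and 31.6 CPM in WT-LPS, against 50.8, 133 and 70.8 CPM in WT-Saline. It was 37.35, 2.47 and 4.29 CPM in KO-LPS, against 63.0, 78.1 and 48.6 CPM in KO-Saline. Its WT difference was the smallest of the 7, and its WT groups did not overlap. WT-LPS held 29.3% of the WT-Saline level (19.6% to 42.8%) and KO-LPS 21.4% of the KO-Saline level (11.9% to 36.4%). The log2 differences were -1.71 ± 0.67 in WT and -2.79 ± 0.67 in KO-labelled libraries.

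**Figure D1:**
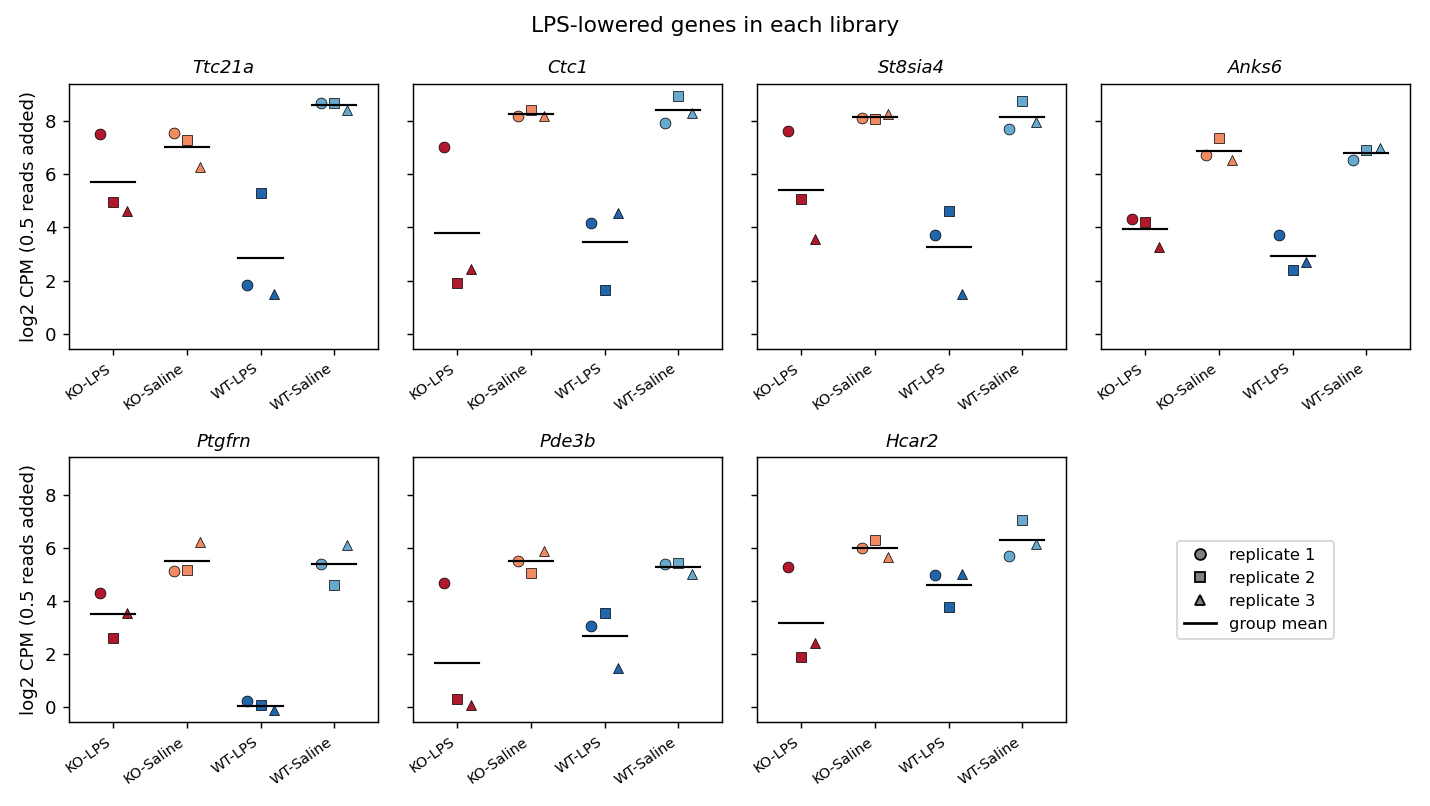
Log2 CPM (vertical axis, with 0.5 reads added) of the 7 genes in each of the 12 libraries, by group (horizontal axis). Symbols mark the replicate and bars the group means. All saline libraries of Anks6 lie above all of its LPS libraries, Ptgfrn is at 0 reads in the 3 WT-LPS libraries, and the round KO-LPS symbol (replicate 1) is the highest of its group in all 7 panels.

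Fitted log2 differences are taken between mean log2 values with 0.5 reads added, so for genes with few reads they depend on that addition. They can also differ from the pooled reads. In KO-labelled libraries Ctc1 was fitted at -4.49, a larger fall than its pooled level of 13.3% of KO-Saline. Intervals and floors cover counting error only. Set against the call rule used for the whole table (limma, Benjamini-Hochberg adjusted p under 0.05), 5 of the 7 genes were called lower in WT, where 4.96% of all genes were. Pde3b and Hcar2 were not. In KO-labelled libraries 5 of 7 were called lower, where 1.35% of all genes were, and Ttc21a and Ptgfrn were not. Every LPS library lay below every saline library for 7 of 7 genes in WT (14.1% of all genes) and for 6 of 7 in KO-labelled libraries (6.89%). Nothing is read from these counts, because the genes were chosen on these contrasts. The median log2 difference of the 7 was -4.87 in WT and -2.79 in KO-labelled libraries, beside 0.06 and 0.09 for all genes.

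**Figure D2:**
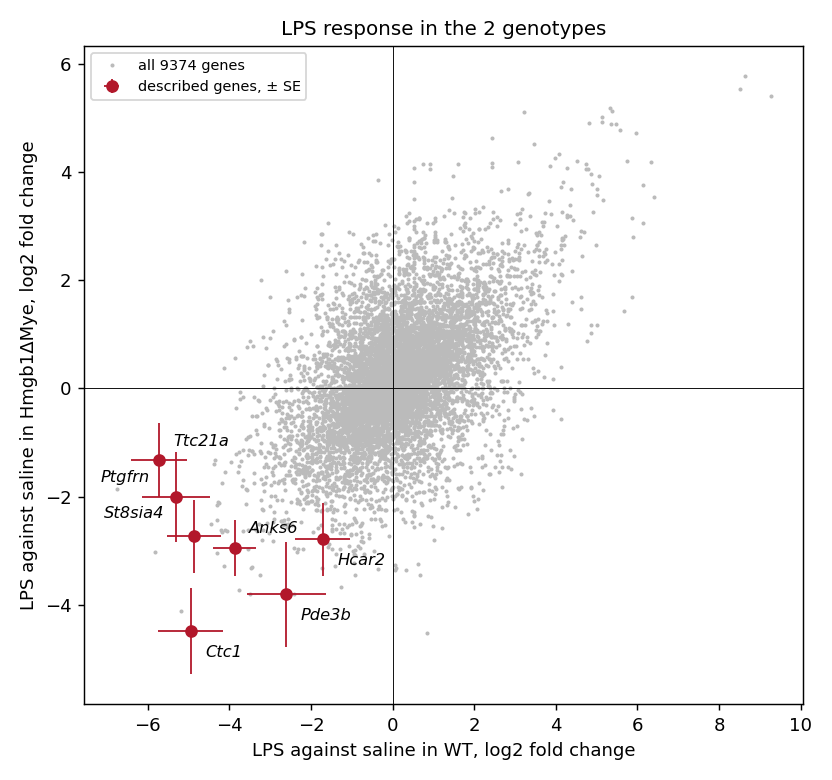
Log2 fold change of LPS against saline in WT (horizontal) and in libraries labelled Hmgb1ΔMye (vertical) for all 9374 genes (grey) and the 7 genes (red, bars are standard errors). Ttc21a is lowest of the 7 on the WT axis (-5.72) and least low on the other (-1.33), while Ctc1 is low on both. The place of Ptgfrn on the WT axis (-5.31) is set by the 0.5 reads added to 0 in WT-LPS and is -3.42 with 2 reads added.

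Without KO-LPS replicate 1 the differences in KO-labelled libraries were larger for all 7 genes. That of Ttc21a was -2.24 ± 0.62 and was then called. That of Ctc1 was -6.11 ± 0.54, of St8sia4 -3.84 ± 0.54, of Pde3b -5.29 ± 0.92 and of Hcar2 -3.83 ± 0.61. KO-LPS replicates 2 and 3 held 0 reads of Pde3b, so its value is set by the added reads. They held 1 and 2 reads of Ctc1 and 1 and 2 reads of Hcar2. Anks6 and Ptgfrn moved least, to -3.14 ± 0.56 and -2.42 ± 0.96. In that fit 6 of the 7 were called lower in KO-labelled libraries, where 5.5% of all genes were, and Ptgfrn was not. Pde3b (-2.60) and Hcar2 (-1.71) were then also called in WT. The calls of St8sia4, Pde3b and Hcar2 in KO-labelled libraries were lost when any of KO-LPS replicates 2 and 3 or KO-Saline replicates 1, 2 and 3 was left out, with log2 differences from -2.77 to -1.81, from -4.02 to -3.01 and from -2.96 to -2.14.

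The difference between genotypes, averaged over both treatments, is another contrast than those by which the genes were chosen. It uses the same libraries and is independent of that choice only where all groups have equal spread. Equal spread was not tested for these genes, which had few reads in WT-LPS. None of the 7 genes was called in the averaged difference, and 1 gene of the whole table was (0.0107%), while 530 had an unadjusted p under 0.05. Ptgfrn had an averaged log2 difference, KO-labelled minus WT, of 1.78 ± 0.59 (95% interval 0.57 to 2.99, limma adjusted p = 0.732). With 2 reads added it was 0.99, since WT-LPS held 0 reads, and over its alternatives the adjusted p ran from 0.494 to 0.97. That of St8sia4 was 1.08 ± 0.47 (0.12 to 2.05, adjusted p = 0.856). That of Hcar2 was -0.87 ± 0.47 (-1.84 to 0.10, adjusted p = 0.88). The intervals of these 3 genes and of Ttc21a (-0.36 to 1.63), Anks6 (-0.22 to 1.29), Ctc1 (-1.06 to 1.25) and Pde3b (-1.80 to 1.01) each contained a difference of 2-fold in at least 1 direction, and the adjusted p of the 7 ran up to 0.993.

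Within one treatment the genotype differences share libraries with the choice of the genes, and they are described only. In saline, the KO-labelled minus WT log2 difference was -1.56 ± 0.69 for Ttc21a and lay between -0.33 and 0.21 for the other 6. In LPS it was 2.83 ± 0.69 for Ttc21a, 3.43 ± 0.83 for Ptgfrn and 2.15 ± 0.67 for St8sia4. It was 1.0 ± 0.52 for Anks6, 0.32 ± 0.80 for Ctc1, -1.0 ± 0.97 for Pde3b and -1.41 ± 0.67 for Hcar2. These differences in LPS depend on KO-LPS replicate 1, least for Anks6 and Ptgfrn. Without that library they were 1.92 ± 0.62 for Ttc21a, 1.05 ± 0.54 for St8sia4, 0.81 ± 0.56 for Anks6 and 3.02 ± 0.96 for Ptgfrn. That of Ctc1 turned to -1.29 ± 0.54, with 3.38 CPM on average in KO-LPS replicates 2 and 3, against 13.7 ± 10.4 CPM in WT-LPS. Those of Pde3b and Hcar2 were -2.49 ± 0.92 and -2.44 ± 0.61 without that library. Pde3b then had 0 and 0 reads in KO-LPS, against 3, 5 and 1 in WT-LPS, so its value is set by the added reads. Hcar2 had 1 and 2 reads in KO-LPS, against 13, 6 and 17 in WT-LPS. The value of Ptgfrn rests on 0 reads in WT-LPS and on 2 to 7 reads in KO-LPS, where KO-LPS replicate 2 lies below the floor of 3 reads, so its LPS libraries cannot be ordered one by one at this depth.

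By group means in CPM, Ctc1 and St8sia4 ran from WT-Saline through KO-Saline and KO-LPS down to WT-LPS, and their libraries were separate only between KO-Saline and KO-LPS. For Ctc1 the place of KO-LPS above WT-LPS came from KO-LPS replicate 1. Anks6 and Ptgfrn ran from KO-Saline through WT-Saline and KO-LPS down to WT-LPS, separate between WT-Saline and KO-LPS. Pde3b was higher in both saline groups than in both LPS groups. Its LPS groups held 9 reads each, with 8.0 CPM in KO-LPS and 6.50 CPM in WT-LPS on average but a lower mean of log2 values in KO-LPS, so they have no order. Hcar2 ran from WT-Saline through KO-Saline and WT-LPS down to KO-LPS, separate between KO-Saline and WT-LPS.

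Across the 12 libraries the 7 genes followed each other, with Pearson r of the log2 values from 0.47 to 0.92 over the 21 pairs (median 0.82). The points share groups and libraries, so this describes the LPS difference again. Compared per kilobase of annotated exon, the WT-Saline level was 71.4 CPM per kb for Ttc21a, 51.7 for Ctc1, 44.0 for Hcar2, 20.9 for Anks6, 14.6 for St8sia4, 4.25 for Ptgfrn and 4.21 for Pde3b. Libraries of Ttc21a (62.9 to 76.4), Ctc1 (36.0 to 72.8) and Hcar2 (26.3 to 69.0) overlapped, as did those of Ptgfrn and Pde3b. By mean reads per library, from 10.7 for Pde3b to 80.2 for Ctc1, the 7 stood between the 48.5 and the 87.9 percentile of all genes.

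No exon of the 7 genes overlaps an annotated exon on the opposite strand, but Ttc21a has close neighbours. Gorasp1, which encodes a Golgi stacking protein, starts 40 bases away and runs in the other direction. Csrnp1, which encodes a nuclear protein of the early response to stimulation, lies on the opposite strand and ends 3.4 kb beyond the end of Ttc21a. Csrnp1 was called lower by LPS in WT, with 54.7 ± 15.9 CPM in WT-LPS and 203 ± 29.3 CPM in WT-Saline (SD, n = 3; log2 difference -1.90 ± 0.38, limma adjusted p = 0.000951). In KO-labelled libraries it had 221 CPM in KO-LPS replicate 1, 61.7 in replicate 2 and 81.5 in replicate 3, against 86.8 to 155 CPM in KO-Saline (-0.21 ± 0.38, adjusted p = 0.835). Like Ttc21a, it was lower in every KO-Saline library than in every WT-Saline library, and it was high in KO-LPS replicate 1. Over the 12 libraries the r between Ttc21a and Csrnp1 was 0.90, and between Ttc21a and Gorasp1 it was 0.29. Gorasp1 averaged 174 ± 21.7 CPM in WT-LPS and 173 ± 23.5 CPM in WT-Saline (0.01 ± 0.26, adjusted p = 0.983). Exons of Csrnp1 overlap 1700019L13Rik and those of Gorasp1 overlap Wdr48 on the other strand, so their own values are uncertain. Whether reads from transcripts that run past the end of Csrnp1 were counted as Ttc21a was not tested. The non-coding gene 4933406I18Rik, 120 bases before Pde3b on the other strand, had 1 read over KO-LPS, 6 over KO-Saline, 0 over WT-LPS and 6 over WT-Saline, too few to compare. Cx3cr1, whose annotated span includes Ttc21a on the other strand without sharing exons, was not used here.

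**Figure D3:**
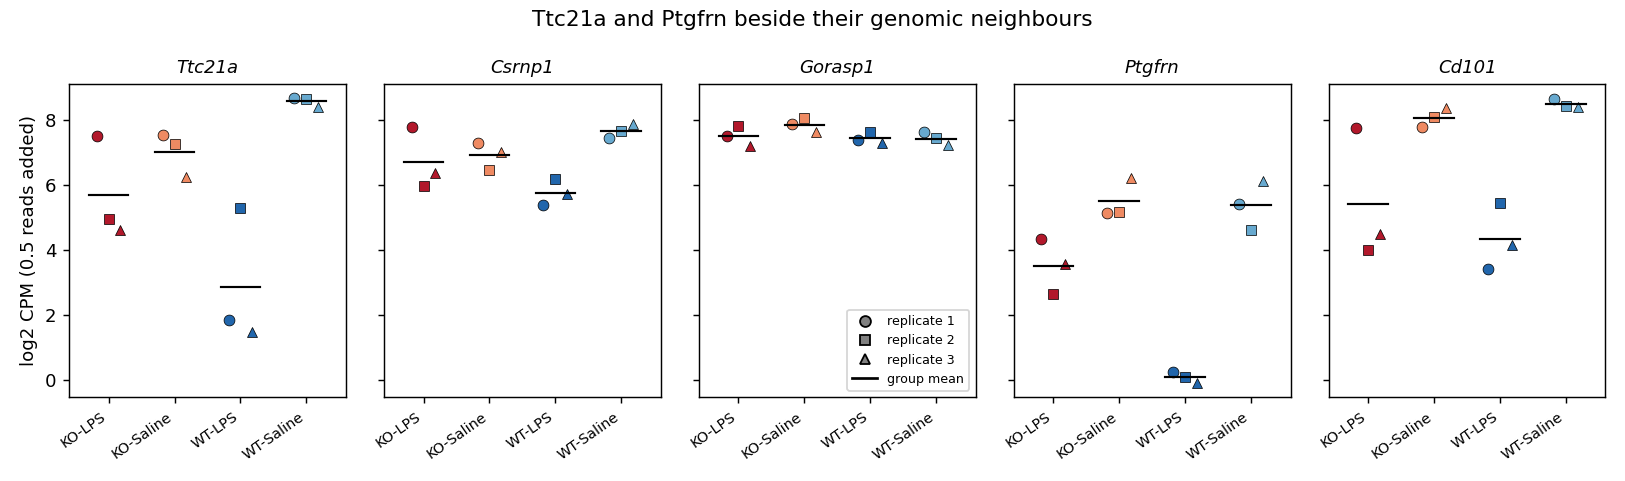
Log2 CPM (vertical axis, with 0.5 reads added) by group (horizontal axis) for Ttc21a, its neighbours Csrnp1 and Gorasp1, and Ptgfrn with its neighbour Cd101. Symbols mark the replicate and bars the group means. Csrnp1 has the same order of libraries as Ttc21a in outline over a smaller range, Gorasp1 is level, and Cd101 is low in both WT-LPS and KO-LPS except in KO-LPS replicate 1 (216 CPM).

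The tetraspanins and EWI proteins around Ptgfrn contained the largest falls that passed the test among the related genes. Of 22 listed genes 15 were measured beside Ptgfrn. In WT 3 fell, 1 rose and 11 did not pass, and in KO-labelled libraries 2 fell and 13 did not pass. Their median log2 difference was 0.36 in WT and 0.35 in KO-labelled libraries, beside 0.06 and 0.09 for all genes. Lower levels in LPS were called for 4.96% of all genes in WT and 1.35% in KO-labelled libraries, and higher levels for 6.72% and 1.99%. Cd101, a relative of Ptgfrn that marks mature mouse neutrophils, lies on the same strand 10.7 kb away with no annotated gene between. It had 9.48, 42.2 and 16.7 CPM in WT-LPS, against 404, 345 and 339 CPM in WT-Saline (-4.17 ± 0.59, limma adjusted p = 1.86e-05). It had 216, 14.8 and 21.4 CPM in KO-LPS, against 220, 271 and 328 CPM in KO-Saline (-2.66 ± 0.59, adjusted p = 0.00932). The WT groups lay far apart, and KO-LPS replicate 1 lay just below the saline libraries. Tspan13, a tetraspanin, fell by 3.54 ± 0.70 log2 units in WT (adjusted p = 0.000868) and by 2.62 ± 0.70 in KO-labelled libraries (adjusted p = 0.0334). Tspan2, whose exons overlap Tspan2os, fell by 2.09 ± 0.48 in WT (adjusted p = 0.00374). The KO call of Cd101 was lost when KO-LPS replicate 2 or 3 or KO-Saline replicate 2 or 3 was left out (highest adjusted p = 0.129). That of Tspan13 was lost without any of those 4, without KO-Saline replicate 1 and without WT-Saline replicate 1 or 2 (highest 0.293).

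Genes of sialic acid synthesis and transfer that passed the test rose, while St8sia4 was low. The list also held genes of sialic acid removal and transport, such as Neu1 and Slc17a5, and acceptor proteins, Ncam1 and Nrp2. Of its 31 genes 15 were measured beside St8sia4. In WT 6 rose, none fell and 9 did not pass, and in KO-labelled libraries 1 rose and 14 did not pass. The count of 6 in WT fell to 2 without WT-LPS replicate 1, to 3 without WT-LPS replicate 2 or WT-Saline replicate 2 or 3, to 4 without WT-Saline replicate 1, and to 1 without a mean-variance trend. Their median log2 difference was 0.81 in WT and 0.59 in KO-labelled libraries. Higher levels were called for 6.72% of all genes in WT and 1.99% in KO-labelled libraries. St8sia1 encodes the enzyme that makes the ganglioside GD3, and it belongs to the same enzyme family as St8sia4. It had 149, 344 and 158 CPM in WT-LPS, against 0, 10.6 and 7.45 CPM in WT-Saline (5.37 ± 0.83, limma adjusted p = 5.3e-05). It had 58.7, 377 and 315 CPM in KO-LPS, against 13.1, 8.68 and 0 CPM in KO-Saline (5.12 ± 0.83, adjusted p = 0.000845). All 6 LPS libraries lay above all 6 saline libraries, although exons of St8sia1 overlap Gm7457 by 149 bases and its values are uncertain. Cmas, which activates sialic acid for transfer, had 43 reads in WT-LPS and 3 in WT-Saline, 14.2 times as high in pooled level (95% counting interval 4.55 to 71.7, adjusted p = 0.0352). Nans, the sialic acid synthase gene, rose by 2.44 ± 0.62 in WT (adjusted p = 0.00874), and its exons overlap Trim14. The call of Cmas was lost when WT-LPS replicate 1 or 2 or WT-Saline replicate 2 or 3 was left out (highest adjusted p = 0.142), and that of Nans without WT-Saline replicate 3 or WT-LPS replicate 1 (up to 0.0815).

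Cyclic AMP signalling joins Pde3b and Hcar2. Of 19 listed cyclic nucleotide phosphodiesterases 11 were measured beside Pde3b, of which 2 fell in WT and the other 9 missed the threshold, and none of the 11 passed in KO-labelled libraries. Pde4b, a cyclic AMP phosphodiesterase of leukocytes, had 59.3, 42.2 and 44.6 CPM in WT-LPS, against 174, 256 and 129 CPM in WT-Saline (-1.87 ± 0.38, limma adjusted p = 0.000969). In KO-labelled libraries it had 136, 51.8 and 92.2 CPM in KO-LPS, against 70.9, 126 and 146 CPM in KO-Saline (-0.33 ± 0.38, adjusted p = 0.719). Its WT groups did not overlap and its KO-labelled groups did. Pde7a fell by 0.96 ± 0.24 in WT (adjusted p = 0.00635), a call lost without WT-Saline replicate 1 or WT-LPS replicate 3 (up to 0.0628), and its exons overlap Gm16093. Of 29 listed genes of cyclic AMP synthesis and its effectors 20 were measured. Akap13, an anchor of protein kinase A, was the only call, in WT (-0.76 ± 0.24, adjusted p = 0.0393), and was lost without each of the 6 WT libraries and each of the 3 KO-Saline libraries (up to 0.173). The median log2 difference was -0.01 for the phosphodiesterases and -0.38 for the cyclic AMP list in WT, and -0.09 and 0.26 in KO-labelled libraries. Lower levels were called for 4.96% of all genes in WT and 1.35% in KO-labelled libraries. The count of the cyclic AMP list is near that background.

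Of 29 listed metabolite receptors and Gi signalling genes 20 were measured beside Hcar2. In WT 2 rose, 2 fell and 16 did not pass, and in KO-labelled libraries none of the 20 passed. With 6.72% of all genes called higher and 4.96% lower in WT, these counts are near the background. Gpr84, a receptor for medium-chain fatty acids, rose by 3.95 ± 0.95 in WT (62.8 ± 16.1 CPM in WT-LPS and 5.44 ± 6.14 CPM in WT-Saline, SD, n = 3; limma adjusted p = 0.00516), and its exons overlap Gm49482. Rgs2, which shortens G protein signals, fell by 2.07 ± 0.44 in WT (adjusted p = 0.00168). Arrb1, the gene of beta-arrestin-1, fell by 1.54 ± 0.39 in WT (adjusted p = 0.00874), a call lost without WT-Saline replicate 3 or WT-LPS replicate 1 (up to 0.0723). The median log2 difference of the list was 0.18 in WT and 0.29 in KO-labelled libraries.

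Of 25 listed genes of ciliary transport and the inversin compartment 14 were measured beside Ttc21a and Anks6, and none passed in either genotype. The most abundant were Anks3, a partner of Anks6 (-0.86 ± 0.32 in WT, limma adjusted p = 0.0871), and the transport subunit Ift172 (0.14 ± 0.32, adjusted p = 0.843). Their median log2 difference was 0.21 in WT and -0.05 in KO-labelled libraries. Of 20 listed telomere genes 12 were measured beside Ctc1. In WT 1 rose, 1 fell and 10 did not pass, and in KO-labelled libraries none of the 12 passed, with medians of -0.48 and 0.03. Over all genes 4.96% were called lower and 6.72% higher in WT, so the counts of both lists are near the background. Pola2, an accessory subunit of DNA polymerase alpha, rose by 1.06 ± 0.33 (adjusted p = 0.0349). Dkc1, a protein of the telomerase particle with exons over Mpp1, fell by 1.35 ± 0.36 (adjusted p = 0.0131). Both calls were lost when WT-LPS replicate 1 or 3 or WT-Saline replicate 2 or 3 was left out (highest adjusted p = 0.166 for Pola2 and 0.0991 for Dkc1).

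**Figure D4:**
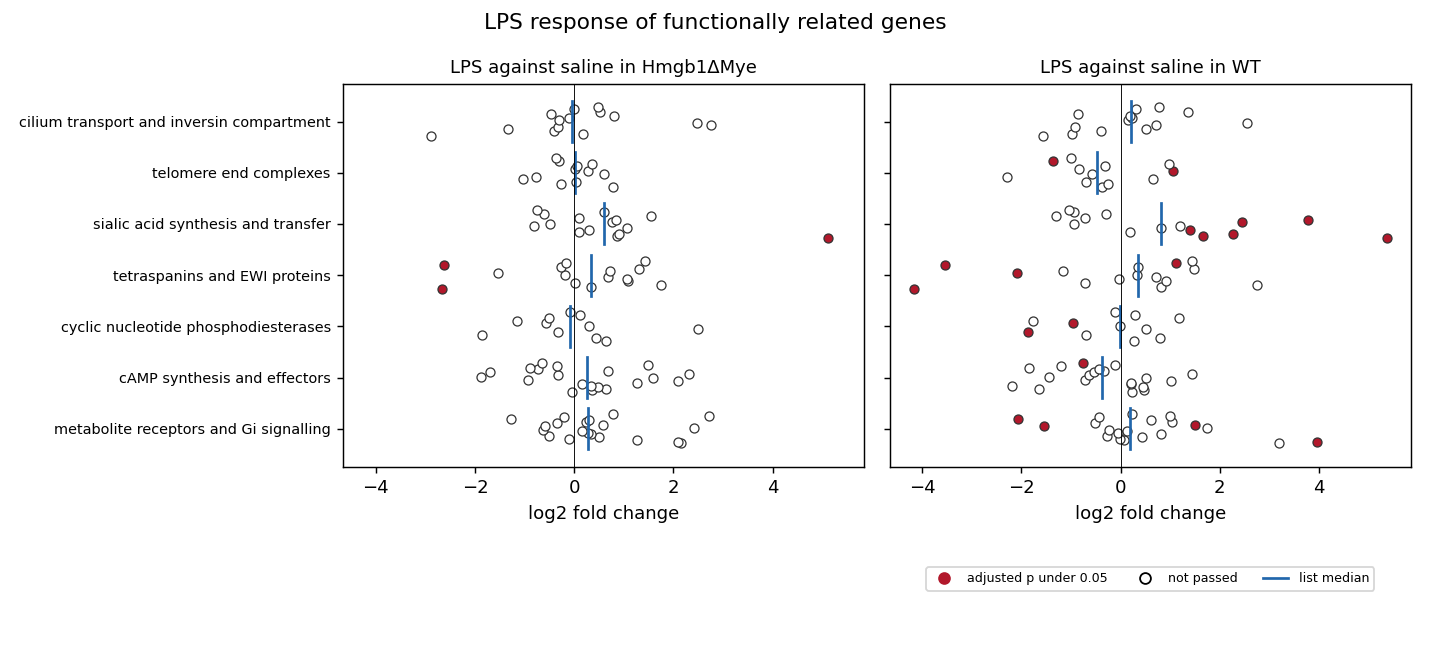
Log2 fold change of LPS against saline (horizontal axis) for each measured gene of 7 lists of functionally related genes (rows), in libraries labelled Hmgb1ΔMye (left) and WT (right), without the 7 described genes. Filled symbols passed an adjusted p under 0.05 (10 higher and 9 lower of 107 in WT, 1 higher and 2 lower in KO-labelled libraries) and bars are list medians. Over all genes 6.72% were called higher and 4.96% lower in WT, and 1.99% and 1.35% in KO-labelled libraries.

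The genes whose log2 values were most like those of each of the 7 over the 12 libraries were searched for among 4378 genes at or above the median level. For Ttc21a they were Clec4e, a receptor for mycobacterial glycolipid (r = 0.95), Rbks (r = 0.95) and Rab11fip4os2 (r = 0.94). For Ctc1 they were Mir290a (r = 0.98), the growth factor gene Csf1 (r = 0.98) and the apolipoprotein gene Apoe (r = 0.97), and for St8sia4 they were Spatc1, Commd1 and Unc50 (r = 0.97 each). Zcchc8 (r = 0.95) and Dcaf15 (r = 0.94) were among those for Anks6. Sele, the E-selectin gene, was the most like Ptgfrn (r = 0.95), with Nipal4 and Smad3 (r = 0.94 each). Fam114a1 (r = 0.97), the inflammasome gene Nlrp3 (r = 0.96) and Cnpy3 (r = 0.95) were most like Pde3b, and Bnipl (r = 0.92) and Csf1 (r = 0.91) were among those for Hcar2. Clec4e averaged 115 ± 26.6 CPM in WT-LPS and 477 ± 67.7 CPM in WT-Saline, and 221 ± 132 CPM in KO-LPS and 333 ± 23.6 CPM in KO-Saline (SD, n = 3), the same order of groups as Ttc21a. Exons of Mir290a, Spatc1 and Commd1 overlap exons on the other strand, and their values are uncertain. The points share the 12 libraries and the LPS difference by which the 7 genes were chosen.

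Markers of other blood cells were sparse, and some moved with LPS. Of 9 platelet markers 4 were measured, with summed levels of 244 to 523 CPM in KO-LPS, 692 to 895 in KO-Saline, 180 to 282.5 in WT-LPS and 537 to 805 in WT-Saline, and Clec1b was at 0 reads in WT-LPS. In WT 3 of these 4 were called lower, and in KO-labelled libraries 1 was. Of 8 dendritic cell markers 5 were measured, with 27.1 to 179 CPM in KO-LPS, 173 to 212 in KO-Saline, 24.2 to 71.1 in WT-LPS and 230 to 347 in WT-Saline, and Clec9a was at 0 reads in WT-LPS. In WT 2 of these 5 were called lower, and in KO-labelled libraries none was called. Both lists were highest among KO-LPS libraries in replicate 1 (523 and 179 CPM), as were the 7 genes. Of 9 monocyte and macrophage markers 5 were measured, with 432 to 646 CPM in KO-LPS, 441 to 494 in KO-Saline, 593 to 683 in WT-LPS and 423 to 545 in WT-Saline. In WT 1 of these 5 was called higher and 2 lower, and in KO-labelled libraries 1 was called lower. Of 12 T and NK cell markers 3 were measured, with 69.1 to 136 CPM in KO-LPS (highest in replicate 1), 91.1 to 176 in KO-Saline, 90.7 to 216 in WT-LPS and 119 to 173 in WT-Saline. In WT 1 of these 3 was called lower, and in KO-labelled libraries none was called. Shares over all genes were 4.96% lower and 6.72% higher in WT, and 1.35% and 1.99% in KO-labelled libraries. Of 8 B cell markers Cd79a alone was measured, and it rose in both genotypes. It had 34.7 CPM in KO-LPS replicate 1, 104 in replicate 2 and 101 in replicate 3, against 7.3 to 28.9 CPM in KO-Saline. It had 101 to 134 CPM in WT-LPS, against 9.7 to 29.6 CPM in WT-Saline. Cd79a was thus high in WT-LPS and in KO-LPS replicates 2 and 3, where the 7 genes were low. In KO-LPS replicate 1, where Cd79a was lower, Anks6 was low too. Of 7 erythroid markers Alas2 (5.3 to 32.1 CPM in KO-LPS, 2.6 to 17.4 in KO-Saline, 7.4 to 37.9 in WT-LPS and 4.8 to 22.4 in WT-Saline) was measured. Of 8 eosinophil and basophil markers Siglecf was measured, at 0 to 21.3 CPM in KO-LPS, 6.5 to 23.6 in KO-Saline, 2.4 to 5.6 in WT-LPS and 4.8 to 13.0 in WT-Saline. The part of these cells in the levels of the 7 genes was not tested.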

How the data were processed

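The data are RNA sequencing of blood neutrophils in 12 libraries. RNA came from the miRNeasy micro kit and went into Tecan's Universal Plus Total RNA libraries, per the labels' protocols. The build was mm10, per the submitters' processing notes. Aligner, counter, strand setting and gene filter were not given in the sources used here. The authors deposited log2 values for 9374 genes by NCBI Gene ID. Taking each column's lowest value as 0 reads plus 0.5, 100.0% of values in every column gave whole reads within 0.0001. The lowest total of a gene was 8 reads.

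Symbols (9372 IDs matched) and promoter windows came from RefSeq GRCm38.p6, and coordinates, 1-based, from GENCODE M21. The deposited log2 values were fitted as they stood with limma 3.58.1 in R 4.3.3, as 4 group means over all 12 libraries with a mean-variance trend, two-sided, with Benjamini-Hochberg adjustment over 9374 genes. The fitting code was tested on simulated data. Pooled read ratios have exact binomial 95% counting intervals, and PCR copies were not told apart by molecular identifiers.

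The members, gene lists, motifs and tests were chosen with earlier results of these data known. Named beside the 7 were measured genes within 5 kb, the 3 most alike genes of each over 12 libraries (leaving out predicted genes and pseudogenes; some are not reported here), up to 3 called genes of each list in WT and 2 in KO-labelled libraries (or the 2 most abundant), and Hmgb1. Cd101 was named by its list, and its place near Ptgfrn was noticed after its values were seen. Samples were grouped by their labels. Alternatives were a replicate block, no trend, 2 reads added, a filter at the median level, other scalings, fits of 2 groups only, each library left out, and, chosen after seeing the data, voom precision weights.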

Additional observations from a re-analysis of the deposited data

How the results depend on the processing

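Without a mean-variance trend limma called 363 genes for LPS in WT, 16 for LPS in KO-labelled libraries and 0 for the averaged genotype difference, against 1095, 314 and 1 with it, and of the 7 genes it called 5 lower in WT and 1 in KO-labelled libraries. With only the 2 groups compared, 1433 genes were called in WT and 82 in KO-labelled libraries. Of the 7 genes all 7 were called lower in WT and 3 (Ctc1, St8sia4 and Anks6) in KO-labelled libraries. With voom weights 7 of the 7 were called lower in WT and 5 in KO-labelled libraries, beside 1253 and 317 called genes of either direction. With 2 reads added they were 6 and 5, beside 1184 and 358. The calls of Pde3b and Hcar2 thus turned with the fit. Leaving out each library in turn gave 734 to 1427 called genes in WT, 32 to 1076 in KO-labelled libraries (lowest without KO-LPS replicate 2, highest without KO-LPS replicate 1) and 0 to 11 for the averaged genotype difference. With the replicate block, the averaged genotype difference had 2 called genes, WT 1086 and KO-labelled libraries 336. Same-numbered libraries had correlations of their deviations from -0.07 to 0.04, and 4 of 12 libraries correlated best with their own number. At a median of 11.33 reads counting noise weakens such correlations, so they cannot tell whether the numbers pair the libraries. The LPS difference of each of the 7 genes was negative in both genotypes under all alternatives that could be run. With 2 reads added that of Ptgfrn in WT was smaller, at -3.42, and so was that of Pde3b in KO-labelled libraries, at -2.52. The averaged genotype difference of Ctc1 changed sign without single libraries (-0.71 to 0.57), as did that of Pde3b (-1.14 to 0.001, without KO-LPS replicate 3). None of the 7 was called in it under any alternative (lowest adjusted p = 0.273, Hcar2 without KO-LPS replicate 1). Of the 107 genes in the related lists, without a trend 2 rose and 3 fell in WT, and without KO-LPS replicate 1, 4 rose and 10 fell in KO-labelled libraries. Over all 9374 genes these fits called 363 in WT and 1076 in KO-labelled libraries, in either direction. Filtering at the median level left out Ptgfrn and Pde3b. The edgeR and DESeq2 tests and TMM scaling were not run, although whole reads could be recovered from the deposited log2 values. Limits: depth was 11.33 reads per library for the median gene, so levels near 1 to 3 reads cannot be ordered. The cause of these dependences was not tested.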
